A study of Mus musculus with 5 samples.

Results

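Heart muscle makes its contractile filaments from families of closely related genes, and it exchanges fetal members of these families for adult ones around birth. The genes described here are 10 of them, chosen by symbol: the cardiac myosin heavy chains Myh6 and Myh7, the myosin light chains Myl2, Myl3, Myl4 and Myl7, and the troponins Tnni1, Tnni3, Tnnt1 and Tnnt2. All 10 had a row in each of the 5 expression tables, out of 13711 genes that the tables shared, and all 10 passed the filter on low values, a mean of 1 CPM or more in 2 or more sections, where CPM are counts of a spot scaled to a total of 1000000.

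They were measured by Visium, which captures polyadenylated RNA from a tissue section on a grid of barcoded spots, each spot covering a small area that can hold several cells. The hearts were from wild-type C57BL/6 mice that had myocardial infarction (MI, ligation of the left anterior descending coronary artery) or a sham operation on postnatal day 1. Transverse sections of 10 µm, cut 200 µm under the suture or at a like height in sham hearts, were taken 3 or 7 days (d3, d7) later. The 5 sections are named sham d3, MI d3, sham d7, and MI d7 sections 1 and 2. A section is the replicate throughout, so the groups with 1 section have no replicate error. By the study's own description the MI d7 sections are independent biological replicates and each other section is a single biological sample, so they are the only pair that shares day and operation.

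The thick filament motor is a myosin hexamer of a pair of heavy chains, each carrying an essential and a regulatory light chain. Myh6 encodes the fast alpha heavy chain and Myh7 the slow beta heavy chain, and the mouse ventricle passes from beta before birth to alpha in the adult, a change under the control of thyroid hormone, while injury and pressure load can bring beta back. Myl3 and Myl2 are the essential and regulatory light chains of the ventricle, and Myl4 and Myl7 are the corresponding chains of the atrium, also made by the embryonic ventricle. Troponin I and troponin T are the inhibitory and the tropomyosin-binding subunits of the thin filament switch. Tnni1, the slow skeletal troponin I, serves the fetal heart and gives way to the cardiac gene Tnni3. Tnnt2 is the cardiac troponin T at all ages, and Tnnt1 is the slow skeletal form. Tnnt1 is grouped below with the fetal-type genes only as the counterpart of Tnnt2.

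Several of the genes are chromosomal neighbours in GRCm38 (GENCODE M21). Myh6 (chr14:54941921-54966927) and Myh7 (chr14:54970684-54994626) lay 3.756 kb apart in the same orientation. Tnnt1 and Tnni3 were 1.922 kb apart on chromosome 7, and Tnni1 and Tnnt2 were 25.364 kb apart on chromosome 1 with Lad1 between them. The other genes stood alone, Myl2 on chromosome 5, Myl3 on chromosome 9, and Myl4 and Myl7 far apart on chromosome 11. In the comparison of days below, the test called at most 1 gene of each pair. The annotation places other genes over some of them, among them Mhrt on the strand opposite to Myh7, Ccdc63 opposite to Myl2, Pth1r opposite to Myl3, 4 genes opposite to Myl4, and Dnaaf3 on the same strand as Tnni3. The sources used here do not say how reads in such stretches were counted, so these levels may include or lose some.

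The sequence before the start site is shown for the 4 fetal-type genes that were lower at day 7 in at least 1 of the tests below, and for Myh6, the partner of Myh7. These are the 250 bases upstream of the first RefSeq start (GRCm38.p6), 5′ to 3′ on the strand of the gene, with capitals for the MCAT motif, CATTCC or its reverse complement GGAATG, a binding sequence of TEAD factors that is known from muscle promoters. Positions are chr14:54994627-54994876 (minus strand) for Myh7, chr14:54966608-54966857 (minus) for Myh6, chr1:135799171-135799420 (plus) for Tnni1, chr11:104550413-104550662 (plus) for Myl4 and chr11:5898783-5899032 (minus) for Myl7.
Myh7: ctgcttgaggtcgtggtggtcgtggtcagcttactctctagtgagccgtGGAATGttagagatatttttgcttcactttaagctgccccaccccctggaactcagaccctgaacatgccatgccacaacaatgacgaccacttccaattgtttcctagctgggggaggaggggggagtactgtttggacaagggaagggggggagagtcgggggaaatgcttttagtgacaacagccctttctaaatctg
Myh6: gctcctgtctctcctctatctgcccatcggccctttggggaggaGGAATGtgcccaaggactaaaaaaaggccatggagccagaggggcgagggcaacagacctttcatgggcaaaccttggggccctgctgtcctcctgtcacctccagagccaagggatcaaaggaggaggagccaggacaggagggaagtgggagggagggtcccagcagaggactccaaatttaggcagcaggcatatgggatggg
Tnni1: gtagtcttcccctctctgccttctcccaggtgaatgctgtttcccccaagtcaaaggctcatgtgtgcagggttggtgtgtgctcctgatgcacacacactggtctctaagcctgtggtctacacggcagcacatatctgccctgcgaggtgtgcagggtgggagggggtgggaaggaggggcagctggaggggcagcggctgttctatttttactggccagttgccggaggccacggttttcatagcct
Myl4: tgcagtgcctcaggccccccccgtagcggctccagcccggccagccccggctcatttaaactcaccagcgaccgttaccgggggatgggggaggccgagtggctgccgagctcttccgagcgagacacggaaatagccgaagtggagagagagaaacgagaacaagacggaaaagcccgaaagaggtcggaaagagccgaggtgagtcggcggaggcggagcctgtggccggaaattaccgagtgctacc
Myl7: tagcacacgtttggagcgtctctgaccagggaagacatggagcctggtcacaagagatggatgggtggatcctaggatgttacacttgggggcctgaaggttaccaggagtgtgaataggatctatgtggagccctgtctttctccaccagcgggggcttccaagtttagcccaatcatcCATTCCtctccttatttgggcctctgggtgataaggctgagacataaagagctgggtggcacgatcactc

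Counted from the first listed starts, the MCAT letters stood at comparable distances in the 2 heavy chain genes, their first base at -206 in Myh6 and -201 in Myh7. In Myl7 their first base was at -70. In windows of 300 bases, from 250 before the start to 50 after it, they were found on either strand in 5 of the 10 genes (Myh6, Myh7, Tnnt2, Myl3 and Myl7), and in 14.6% of 27025 promoters. The CArG box bound by serum response factor was in 2 of the 10 (Myl3 and Myl7) against 1.57% of promoters. The sequence TATAAA was in 2 (Myh6 and Tnnt1, 14.2% of promoters) and the GATA sequence AGATAA was in 2 (Tnnt2 and Myl2, 11.4%). In Myh6 the TATAAA began at +2, after the first listed start. The MEF2 sequence CTANNNNTAG (3.70% of promoters) and AGGTCA, bound by thyroid hormone and other nuclear receptors (16.04%), were in none of these 10 windows, each searched on both strands. Whether the first listed start is the one used in heart was not tested. The Myl2 window (chr5:122092474-122092773) ended well before the Myl2 gene of GENCODE (chr5:122100951-122113472). In these windows no motif separated the genes that were lower at day 7 from the rest: Myh7 and Myl7 held MCAT letters, and Tnni1 and Myl4 held none of the 6 sequences.

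The sections held 366 to 960 spots over tissue, 3343 in all, with 11396022 to 37483563 raw unique molecular identifiers (UMIs) per section and a median of 20842.5 to 53988.5 per spot. The 10 genes together made up 3.54% to 4.19% of the values. MI d7 section 1 stood apart by its mitochondrial share, 24.4% of the values against 13.7% to 15.8% in the other sections. Cardiomyocyte markers (Actc1, Ttn, Actn2, Ryr2 and Pln) summed to between 14694 and 17522 CPM in all 5 sections. The atrial markers Sln, Bmp10 and Mybphl were at or under 1.27 CPM where a table lists them, and of the 5 skeletal muscle markers that all tables list, Mylpf, Tnnt3 and Myh8 were at or under 2.22 CPM, Tnni2 was at 2.10 to 11.9 CPM and Acta1, which the developing heart also makes, was at 63.4 to 293 CPM (sum of the 5, 70.01 to 300.2 CPM). Macrophage markers summed to 837 CPM in MI d3 and 79.2 to 216 CPM elsewhere, and the 4 fibroblast markers to 2708, 2264 and 3161 CPM in the MI sections against 1702 and 1848 CPM in the sham sections. In such tissue, fewer cardiomyocytes under a spot and less RNA per cardiomyocyte cannot be told apart.

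The first question was how the isoforms changed between 3 and 7 days after surgery. Of the 10 genes, 3 fetal-type genes were lower at day 7: Myh7, Myl4 and Myl7. Of 12948 genes tested with limma, 0.633% passed an adjusted p of 0.05 in either direction and 0.371% were lower at day 7. The adult-type partners stayed among the most abundant transcripts, and none of them passed the test.

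Myh7 had a mean level of 1857 CPM in sham d3 and 2937 CPM in MI d3. It was at 519.6 CPM in sham d7 and at 629 and 900.1 CPM in MI d7 sections 1 and 2 (764 ± 192 CPM, SD, n = 2). Every day 7 section was thus below both day 3 sections, and the means of the days differed 3.51-fold. With operation as a covariate the log2 change was -1.91 ± 0.18 (SE), adjusted p = 0.0166. Among the 13711 genes Myh7 stood at rank 56 and 31 at day 3 and at ranks 168 to 282 at day 7. Myh6, its adult partner, was at 6299 and 5568 CPM in sham d3 and MI d3. It was at 8156, 7602 and 7584 CPM in sham d7 and MI d7 sections 1 and 2, higher than at day 3 in each, and its log2 change of 0.42 ± 0.18 did not pass (adjusted p = 0.199). The 3′ ends of these genes are alike: of 451 windows of 50 bases in the last 500 bases of the transcript, 193 of Myh6 occurred also in Myh7 and 230 of Myh7 in Myh6, so reads from there could be dropped or shared between them. No such window was shared between the other paralogues.

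The atrial light chains were low at both ages, and Myl7 fell further than any other of the 10. Myl4, the essential chain, was at 76.8 and 70.2 CPM in sham d3 and MI d3 and at 26.0, 15.2 and 20.2 CPM in sham d7 and MI d7 sections 1 and 2, a log2 change of -1.76 ± 0.17 (adjusted p = 0.0166). Without MI d7 section 2 its adjusted p was 0.0528. Myl7, the regulatory chain, was at 22.1 and 42.6 CPM at day 3 and at 0.950, 1.42 and 3.01 CPM at day 7, in the same order of sections, a log2 change of -3.70 ± 0.24 (adjusted p = 0.00697), and of -2.50 (adjusted p = 0.0105) with a pseudocount of 5 CPM, which weighs more on so low a gene. The means differed 18.0-fold for Myl7 and 3.59-fold for Myl4, and the days did not overlap for either gene. The days did not overlap for the adult-type Myh6, Myl3 and Tnni3 either. The share of all genes without overlap was not counted. Myl7 had a value above 0 in 178 of 544 spots and 226 of 366 spots of sham d3 and MI d3, but in only 20 of 960, 50 of 688 and 47 of 785 spots at day 7, so its day 7 levels rest on few spots. Endocardial markers summed to 46.0 and 60.4 CPM in sham d3 and MI d3 and to 27.3, 24.98 and 36.6 CPM in sham d7 and MI d7 sections 1 and 2, also without overlap. Of the 4 listed atrial markers, Pam and Nppa had log2 changes of -1.20 (adjusted p = 0.0573) and -2.81 (0.149). The other markers moved less. Dkk3 had a log2 change of -0.38 (adjusted p = 0.220). Stard10 was at 12.3 and 9.85 CPM in sham d3 and MI d3 and at 6.63, 9.52 and 9.78 CPM at day 7. The part of either marker list in the Myl4 and Myl7 differences was not tested. In the sham d3 table, which holds raw counts, Myl7 had 239 UMIs (exact Poisson 95% interval 210 to 271, counting error only) and Myl4 had 863 (806 to 923).

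Their ventricular partners moved little. Myl3 was at 7665 and 6201 CPM in sham d3 and MI d3 and at 8270.3, 8185 and 8075 CPM at day 7 (log2 change 0.27 ± 0.19, adjusted p = 0.382). Myl2, the most abundant of the 10 in every section, was at 14895 and 11433 CPM at day 3 and at 13181, 14579 and 12959.8 CPM at day 7 (0.08 ± 0.22, adjusted p = 0.844). The Myl3 values of the 2 days did not overlap. The Myl2 values of the 2 days overlapped, and the Myl2 change turned negative without MI d3 (-0.18).

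Among the troponins, Tnni1 followed the same course with less certainty. It was at 2235 and 1516 CPM in sham d3 and MI d3 and at 878, 796 and 912 CPM in sham d7 and MI d7 sections 1 and 2. The days did not overlap, the means differed 2.18-fold, and the log2 change of -1.05 ± 0.17 was just outside the threshold (adjusted p = 0.0529). It passed when mitochondrial and haemoglobin genes were left out of the totals (-0.999, adjusted p = 0.0408) and without MI d7 section 1 (adjusted p = 0.0167). Tnni3 was at 3259 and 2512 CPM at day 3 and at 3560.4, 4252 and 3451 CPM at day 7, in the same order, with a log2 change of 0.40 ± 0.19 (adjusted p = 0.234). Its values did not overlap between the days.

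Troponin T, where Tnnt2 is the cardiac gene at all ages, showed no such exchange. Tnnt2 ranged from 4763 to 5295 CPM and Tnnt1 from 41.3 to 50 CPM over the 5 sections, and the days overlapped for both. Their log2 changes of -0.04 ± 0.17 and -0.09 ± 0.12 had adjusted p-values of 0.886 and 0.660, and they turned to 0.15 and 0.10 under median-of-ratios scaling. Tnnt2 is spliced differently in the fetal and the adult heart, which a count per gene does not resolve.

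The median gene was 0.18 lower at day 7 on the log2 scale under CPM and was at -0.0047 under median-of-ratios scaling, which took the called genes from 82 (34 higher at day 7, 41.5%) to 186 (129 higher, 69.4%). Myh7, Myl4 and Myl7 passed under both. The plot of member levels shows the step between the days in the fetal-type row and its absence for Tnnt1.

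**Figure D1:**
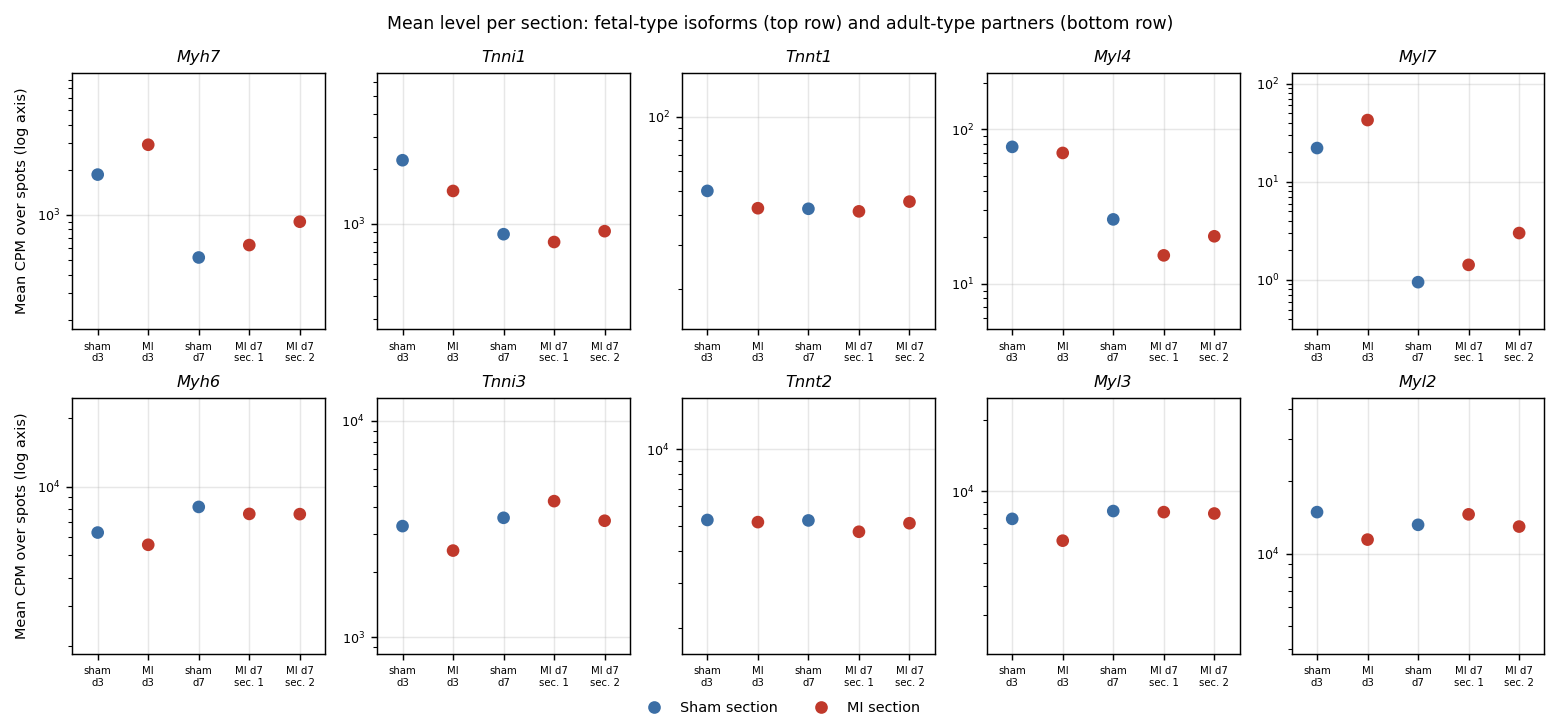
Mean CPM over the spots of each section (log axis) for the 5 fetal-type genes in the top row and their adult-type partners in the bottom row; each point is 1 section, blue for sham and red for MI. Myh7, Tnni1, Myl4 and Myl7 lie lower in the 3 day 7 sections than in the 2 day 3 sections, while Tnnt1 stays between 41.3 and 50 CPM.

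As ratios, which compare genes within the same spots and do not depend on the total of a spot, the change was also seen. A Visium count marks the 3′ end of a molecule, so it does not grow with transcript length, but capture may still differ between genes, and ratios are therefore compared between sections and not read as exact protein proportions. For every 100 Myh6 counts there were 29.5 and 52.8 Myh7 counts in sham d3 and MI d3. There were 6.37 in sham d7 and 8.27 and 11.9 in MI d7 sections 1 and 2. The mean log2 ratio was -3.55 ± 0.45 (SD, n = 3) at day 7 and -1.34 ± 0.59 (n = 2) at day 3, a difference of -2.21.

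Tnni1 per 100 Tnni3 was 68.6 and 60.4 in sham d3 and MI d3 and 24.7, 18.7 and 26.4 in sham d7 and MI d7 sections 1 and 2, a log2 difference of -1.48. The light chain ratios fell further than that of troponin I. Myl4 per 100 Myl3 was 1.00 and 1.13 at day 3 and 0.315, 0.186 and 0.251 at day 7 (-2.12), and Myl7 per 100 Myl2 was 0.148 and 0.372 at day 3 and 0.00720, 0.00977 and 0.0232 at day 7 (-4.32). The sections of the 2 days did not overlap for any of these 4 ratios of section means. As a median over spots, where most spots outside MI d3 have no Myl7 and the pseudocount sets the value, Myl7:Myl2 overlapped between the days (0.00721 per 100 in sham d3 against 0.00699 to 0.00770 at day 7). Each had an exact two-sided permutation p of 0.2, the smallest that 3 sections against 2 allow, and a Benjamini-Hochberg adjusted value of 0.25 over 5 ratios. Tnnt1 per 100 Tnnt2 stayed between 0.802 and 0.944 (log2 difference -0.05, exact p = 0.6).

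**Figure D2:**
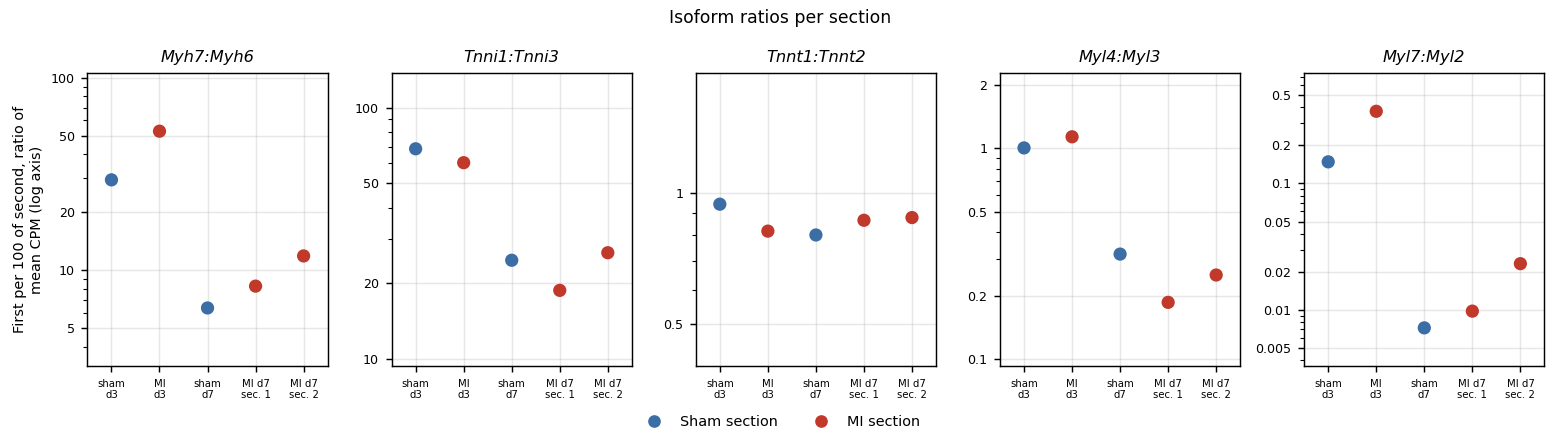
The fetal-type isoform per 100 counts of its partner in each section (log axis), from the section means of CPM; each point is 1 section, blue for sham and red for MI. The Myh7:Myh6 ratio runs from 6.37 to 11.9 at day 7 and is 29.5 and 52.8 at day 3; Tnnt1:Tnnt2 is nearly level.

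To ask whether the change was also seen within muscle, the fit was repeated on spots in which CM1, the main ventricular cardiomyocyte state, had the highest of 11 deposited cell type scores. These were 201 to 488 spots per section. The scores come from the same expression values, but the day is not part of their definition. In CM1-dominant spots 4 of the 10 genes were lower at day 7, against 2.58% of 12757 genes called lower, 0.807% called higher and 3.39% called in either direction. The log2 changes were -3.60 ± 0.24 for Myl7 (adjusted p = 1.98e-06), -2.09 ± 0.21 for Myh7 (6.37e-05), -1.37 ± 0.16 for Myl4 (0.000339) and -1.09 ± 0.17 for Tnni1 (0.00256). The first 3 passed in each of the 5 fits that left out 1 section. Tnni1 did not pass without sham d3, MI d3 or sham d7 (adjusted p 0.0932, 0.0933 and 0.104). Myh6 had a log2 change of 0.33 ± 0.19 (adjusted p = 0.337) and passed only without MI d7 section 1 (0.36, adjusted p = 0.0403).

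The second question was whether infarction altered the isoforms. Across both days, with day as a covariate, limma called 0 of the 10 genes and 1 of 12948 (0.00772%). At an unadjusted p under 0.05 there were 2 of the 10, Myh7 and Myl7, and 1060 of all genes. Both were higher in MI than in the sham section of the same day, in 3 comparisons of which 2 share sham d7 and are not independent. Myh7 was 1.58-fold the sham level at day 3 and 1.21- and 1.73-fold in MI d7 sections 1 and 2 at day 7 on the log2(CPM + 1) scale, with a log2 difference across days of 0.59 ± 0.18 (adjusted p = 0.461). Myl7 was 1.89-, 1.24- and 2.06-fold in the same order (0.78 ± 0.24, adjusted p = 0.461). Over the settings that kept every section, the Myl7 difference ran from 0.50 to 0.81. Both results turned on MI d7 section 1, the section with the high mitochondrial share: without it Myh7 was at 0.73 (adjusted p = 0.0157) and Myl7 at 0.98 (0.0323), in a fit that called 231 genes.

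Nppa, the atrial natriuretic peptide gene, also differed between the sections, in an order that was not that of Myh7 or Myl7. It was at 611 and 8154 CPM in sham d3 and MI d3 and at 312, 158 and 1258 CPM in sham d7 and MI d7 sections 1 and 2. Its part in the Myl7 and Myh7 differences was not tested. Summed over the 4 atrial markers that all tables list (Nppa, Stard10, Dkk3 and Pam), the level was 1048 and 577 CPM in the sham sections and 8754, 361 and 1501 CPM in the MI sections, and Sln, Bmp10 and Mybphl, not listed in every table, were at or under 1.27 CPM where listed.

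The remaining genes were lower in the MI section at day 3, where the comparison rests on 1 section per group and was not tested on its own. Tnni1 was at 0.679-fold the sham level there, and Myl2, Tnni3, Myl3 and Myh6 were at 0.768- to 0.884-fold. At day 7 all 7 of them other than Myl4 lay between 0.903- and 1.19-fold of sham in both MI sections. Myl4 was 0.914-fold at day 3 and 0.600- and 0.786-fold in MI d7 sections 1 and 2. At day 7 alone limma called 0 of the 10 genes and 9 of 12948 (0.0695%), from a spread that only the 2 MI sections supply. There Myl4 had a log2 difference of -0.54 ± 0.23 and Myl7 of 0.68 ± 0.29, both with an adjusted p of 0.999, and these 2 of the 10 had an unadjusted p under 0.05, as had 485 of all genes. Over the settings that kept every section, the Myl7 difference at day 7 ran from 0.27 to 0.75. The effect of MI did not differ detectably between the days for any of the 10 (interaction, 0 called at an adjusted p of 0.05, against 0.1% of all genes called and 0.0772% called lower, and 0 at an unadjusted p under 0.05, against 659 of 12948 genes).

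In CM1-dominant spots, limma called 0 of the 10 genes between MI and sham, against 0.204% of 12757 genes, 0.047% lower in MI, with 2 of the 10, Myh7 and Myl4, at an unadjusted p under 0.05, as were 970 of all genes. Myl4 was lower in MI by -0.73 ± 0.16 (adjusted p = 0.0800). It passed without MI d7 section 1 (-0.67, adjusted p = 0.0427) or section 2 (-0.79, adjusted p = 0.0279). Myh7 was at 0.59 ± 0.21 (adjusted p = 0.418), and at 0.80 (adjusted p = 0.00158) without MI d7 section 1. Myl7, higher in MI by 0.78 over all spots, was at 0.21 ± 0.24 in these spots (adjusted p = 0.925), and the difference between the 2 estimates was not tested.

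Between the operations the test of the ratios has little reach, since its smallest p is 0.2 and it does not take the day into account. The mean log2 difference, MI minus sham, was 0.34 for Myh7:Myh6, -0.41 for Tnni1:Tnni3, -0.03 for Tnnt1:Tnnt2, -0.58 for Myl4:Myl3 and 0.42 for Myl7:Myl2, with exact two-sided permutation p-values of 0.6 to 1 and an adjusted value of 1 for each. The groups mix days, and the change between days is larger than these differences. Within a day, in the same 3 comparisons with their shared sham d7, Myh7:Myh6 was higher in MI, by 0.84 at day 3 and by 0.38 and 0.90 in MI d7 sections 1 and 2 at day 7, as was Myl7:Myl2, by 1.33, 0.44 and 1.69. For Myl7:Myl2 this depended on the setting: in CM1-dominant spots MI d7 section 1 was below sham d7 (0.00406 against 0.00635 per 100 Myl2), and as a median over spots both MI d7 sections were.

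The ratios were next followed across the dominant score class of each spot, within each section. The classes come from the expression values themselves, so these are descriptions with no test, and classes with under 10 spots in a section were left out. The heavy chain ratio was higher than in CM1-dominant spots in most sections for several classes, muscle and non-muscle. Relative to CM1-dominant spots of the same section, Myh7:Myh6 was higher by 0.35 ± 0.26 on the log2 scale in endocardial-dominant (EndoEC) spots (SD, n = 5, higher in 5 of 5 sections) and by 0.42 ± 0.43 in fibroblast-dominant (FB) spots (4 of 5). It was higher by 0.17 ± 0.20 in endothelial-dominant (EC) spots (5 of 5) and by 0.37 ± 0.31 in macrophage-dominant spots (4 of 5). Among cardiomyocyte states it was higher by 0.21 ± 0.22 in spots dominated by CM4 (4 of 5) and by 0.20 ± 0.38 in those dominated by CM5 (3 of 4). CM4 is the cardiomyocyte state that the study describes as entering the cell cycle after neonatal injury.

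The fibroblast-dominant spots differed between sections. In MI d7 sections 1 and 2 they held 12.1 and 19.3 Myh7 per 100 Myh6, against 6.78 and 10.3 in CM1-dominant spots. In sham d7 the values were 6.72 and 6.10, and in sham d3 33.0 and 26.5. In MI d3 the order was the opposite, 49.7 against 52.6. The wider gaps were in MI d7 sections 1 and 2. Myh7 itself was higher in FB than in CM1 spots in 3 sections, 842 against 523 CPM in MI d7 section 1, 1179 against 844 CPM in section 2 and 1973 against 1775 CPM in sham d3, while Myh6 was lower, 6971 against 7709.5 CPM, 6104 against 8227 CPM and 5988 against 6712 CPM.

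Troponin I went the other way. Tnni1:Tnni3 was lower than in CM1-dominant spots in FB (-0.16 ± 0.11), EC (-0.13 ± 0.08) and EndoEC spots (-0.12 ± 0.07), each in 5 of 5 sections. In CM4 spots the difference was -0.18 ± 0.18 (lower in 4 of 5 sections). It was -0.08 ± 0.11 in macrophage-dominant spots (4 of 5) and -0.08 ± 0.13 in CM5 spots (3 of 4). Both troponin I genes were lower in FB and EndoEC spots than in CM1 spots in 5 of 5 sections, and in EC spots in 4 of 5, with MI d7 section 1 the exception (Tnni1 at 853 against 852 CPM and Tnni3 at 4558 against 4361 CPM). A higher share of fetal-type heavy chain and a lower share of fetal-type troponin I were thus found in the same classes of spots.

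The atrial light chains had the widest class differences. Myl4:Myl3 was higher than in CM1 spots by 1.26 ± 0.86 in FB and 0.96 ± 0.97 in EndoEC spots, in 5 of 5 sections each. MI d3 set the upper end: Myl4 was at 149 CPM in FB, 167 CPM in EndoEC and 129 CPM in CM4 spots but at 38.6 CPM in CM1 spots, and Myl7 was at 94.7, 71.5 and 63.9 CPM against 25.5 CPM. In sham d3 Myl4 was at 95.6, 104 and 55.7 CPM in FB, EndoEC and CM4 spots against 66.3 CPM, and Myl7 was at 25.9, 20.5 and 21.7 CPM against 20.05 CPM. The adult-type genes were low in the same spots of MI d3. Myh6 was at 3714 CPM in FB spots against 6463 CPM in CM1 spots, and Tnni3 was at 1642 against 2927 CPM.

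**Figure D3:**
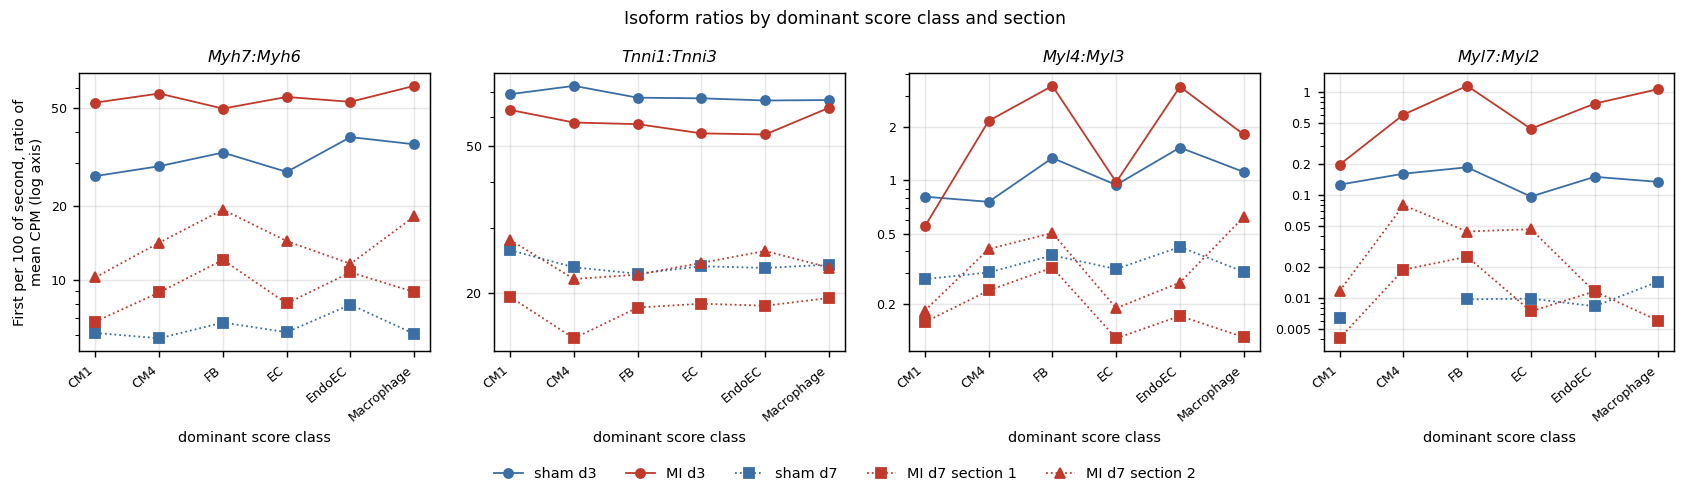
Isoform ratios by the dominant score class of the spots (fetal-type isoform per 100 counts of its partner, log axis), with a line for each section; blue marks sham and red MI, circles day 3 and squares or triangles day 7, and a missing point means that the mean of the fetal-type gene was 0. Myl4:Myl3 in MI d3 rises from 0.550 in CM1 spots to 3.42 in FB spots, and Myh7:Myh6 in MI d7 section 2 rises from 10.3 to 19.3.

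Spatial clustering was measured with Moran's I over neighbouring spots, which is near 0 for a random arrangement and near 1 where neighbours are alike. In sham d3 it was 0.15 for Myl4 and 0.02 for Myl7, and in MI d3 0.41 and 0.30. The adult-type genes were also more clustered in MI d3, Myh6 at 0.72 against 0.26 and Tnni3 at 0.78 against 0.19. The maps of day 3 show what this looked like: in the MI section, a broad area on the left and centre was low in Tnni3 and Tnni1, and the highest Myl4 and Myl7 values lay in and beside that area. At day 7 Myl4 and Myl7 were too sparse for a map, with Moran's I between 0.01 and 0.09. Median UMIs per spot were 20842.5 and 35115.5 in sham d3 and MI d3, and the part of depth in this difference was not tested.

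**Figure D4:**
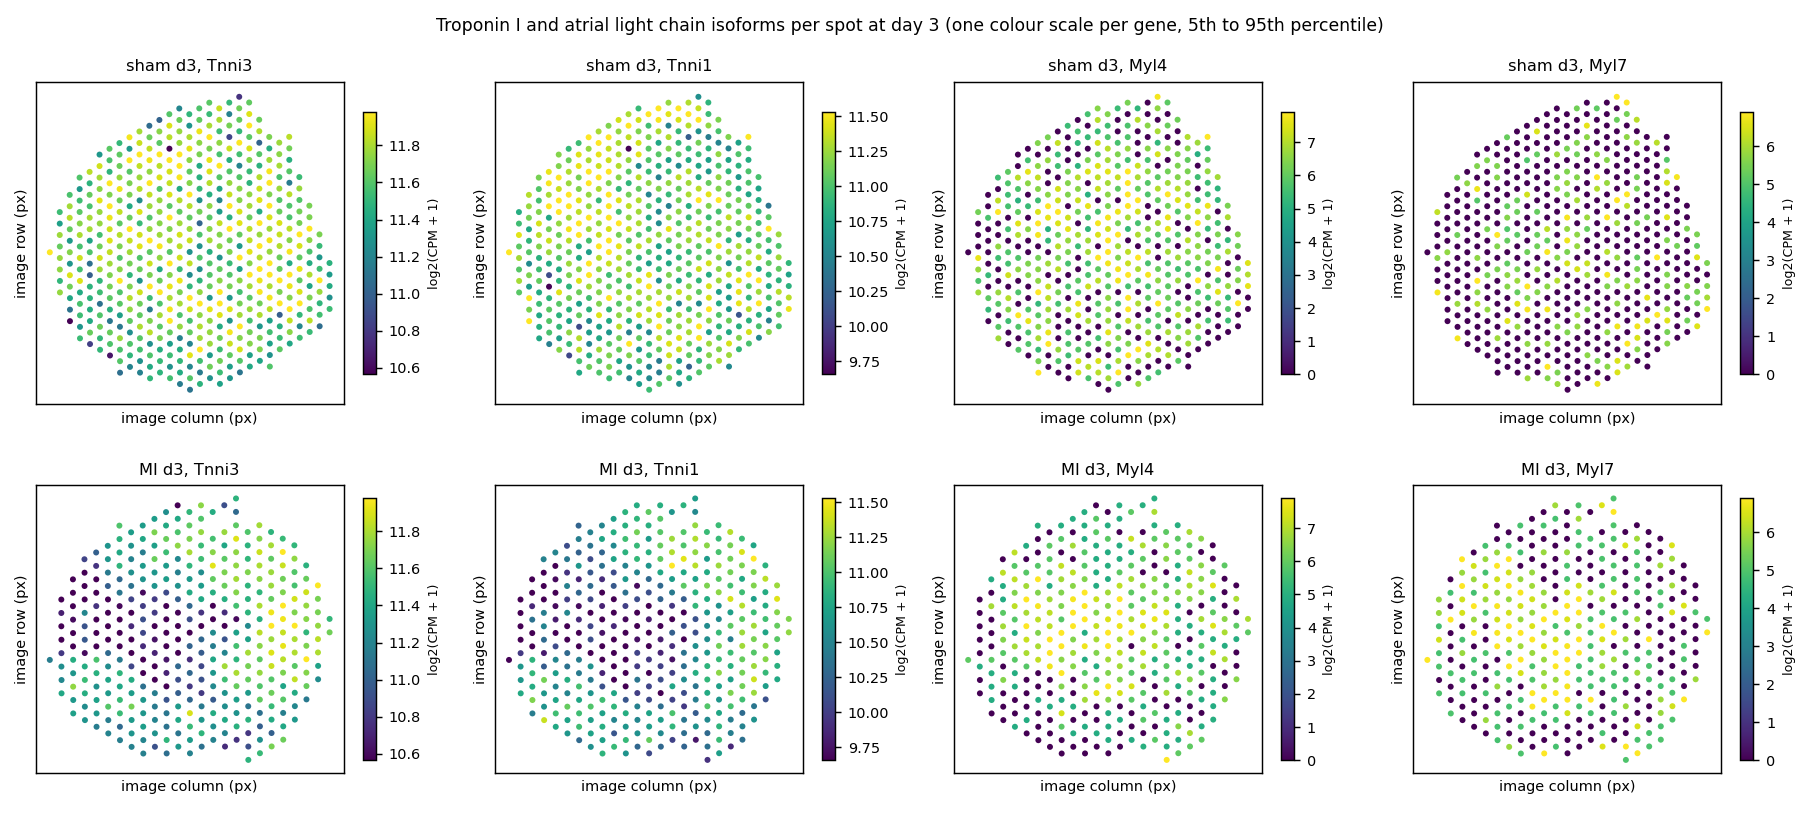
Tnni3, Tnni1, Myl4 and Myl7 in each spot of sham d3 (top) and MI d3 (bottom), as log2(CPM + 1); axes are image pixels, each dot is 1 spot over tissue, and each gene has 1 colour scale for both sections. The MI section has a continuous area of low Tnni3 and Tnni1 and a patch of high Myl4 and Myl7 (Moran's I 0.41 and 0.30), where the sham section is mottled (0.15 and 0.02).

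Myh7:Myh6 varied from spot to spot in all sections. The 10th and 90th percentiles of Myh7 per 100 Myh6 were 17.7 and 44.7 in sham d3 and 33.9 and 78.4 in MI d3. They were 3.29 and 9.96 in sham d7, and 4.91 and 13.5, and 5.13 and 21.4, in MI d7 sections 1 and 2. The 90th percentile was 2.31 to 3.03 times the 10th in 4 sections and 4.17 times in MI d7 section 2. At day 7 the high spots lay together, in a band in the upper part of the sham section, in a patch on the left of MI section 1, and around the cavity and along the right side in MI section 2.

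**Figure D5:**
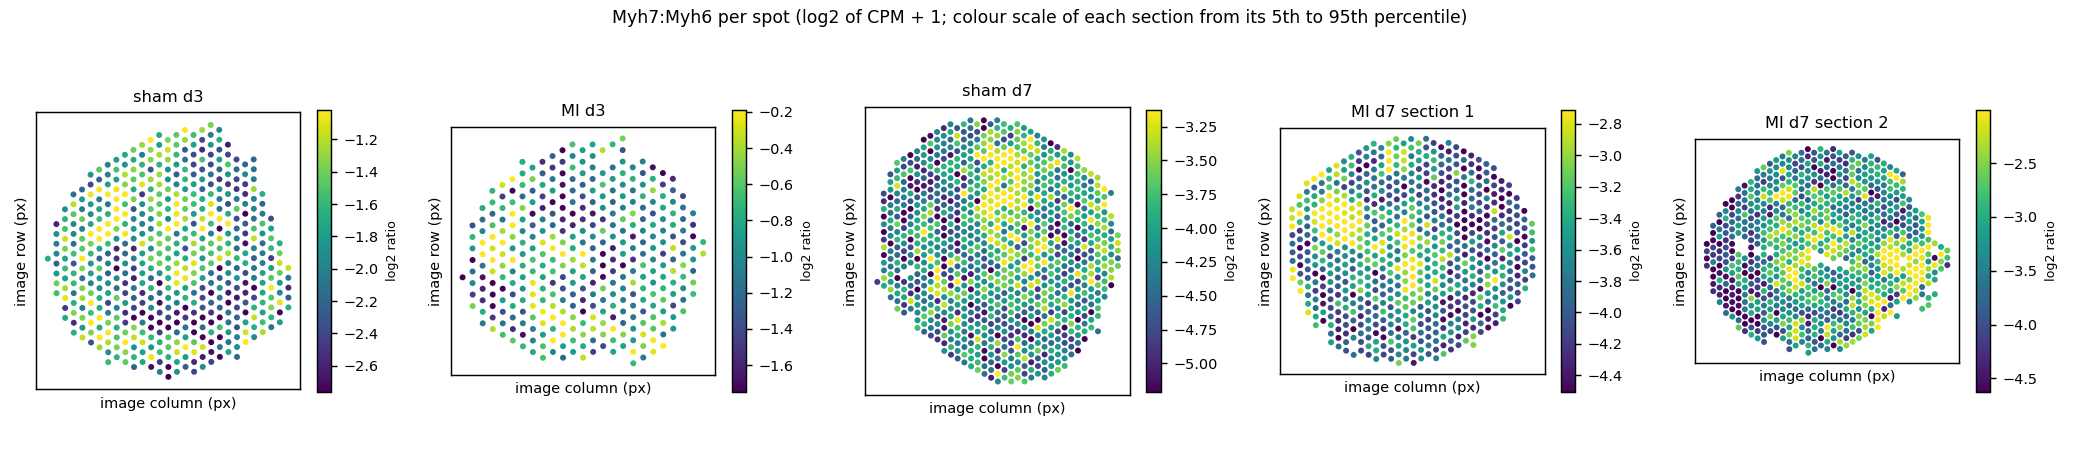
The log2 ratio of Myh7 to Myh6 in each spot over tissue (CPM + 1), with image pixels on the axes and a colour scale of its own for each section from its 5th to its 95th percentile. Spots with a high ratio form a patch on the left in MI d7 section 1 and lie around the cavity and along the right side in MI d7 section 2.

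The spots with the highest Myh7 differed in what else they contained. In each section the top 10% of spots by Myh7 were set against the rest. Nppa was 3.58 and 2.66 times as high in the top spots of MI d7 sections 1 and 2, but 0.595 times in MI d3 and 0.672 and 0.792 times in sham d3 and sham d7. Col1a1, the fibrillar collagen gene of fibroblasts, was 2.05 and 1.41 times as high in the MI d7 sections, 0.558 times in MI d3 and 1.17 and 1.03 times in the sham sections. Myh6 was within 0.956 and 1.18 times in all 5. These ratios are within a section, and the levels ran otherwise: the top Myh7 spots held 5068 CPM of Nppa in MI d3 (8519 CPM in the rest) and 452 and 2878 CPM in MI d7 sections 1 and 2 (126 and 1082 CPM in the rest). These values describe spots of single sections and were not tested.

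Position at the rim of the section was compared next. Edge spots had fewer than 6 neighbours (76 to 157 spots, 12.7% to 20.8% of a section), and edge and interior profiles were compared by limma with the section as a block. Of the 10 genes 1 was called, Myl4, against 4.52% of 13333 genes in either direction and 3.72% lower, so 1 of 10 is not read as a result about them. Myl4 was lower at the edge in all 5 sections, with 34.1 against 79.6 CPM in MI d3, 52.1 against 81.5 CPM in sham d3, 9.96 against 16.1 CPM and 18.0 against 20.8 CPM in MI d7 sections 1 and 2, and 25.03 against 26.2 CPM in sham d7. Its log2 difference was -0.55 ± 0.12 (adjusted p = 0.0152). It did not pass under median-of-ratios scaling (-0.43, adjusted p = 0.0733), under which 76.1% of called genes were higher at the edge against 17.7% under CPM, nor without sham d3, MI d3 or MI d7 section 1 (adjusted p 0.0811, 0.0855 and 0.0577). Tnni1:Tnni3 was higher at the edge in 5 of 5 sections, by 0.05 to 0.35 on the log2 scale, and Myh7:Myh6 differed by -0.12 to 0.0002.

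Across spots of a section, the abundant genes rose and fell together. Spearman's rho of per-spot CPM, as a mean over 5 sections of 366 to 960 spots, was 0.67 between Myl2 and Myl3, 0.64 between Myh6 and Myl2 and 0.64 between Tnnt2 and Myl2. Spots share their total and the amount of muscle beneath them, so these are descriptions and carry no p. Myh6 and Myh7 were much less alike, with a mean of 0.17 and section values from -0.04 in MI d7 section 1 to 0.49 in MI d3. Tnni1 went with its adult partner Tnni3 at 0.45 (0.26 to 0.79). Myl4 and Myl7 were low and sparse, with a rho between them of 0.31 in MI d3 and -0.0033 to 0.11 elsewhere. In MI d3 they ran against Myh6, at -0.33 and -0.43.

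The genes most like each fetal-type gene were sought by the same measure among 7599 genes (7600 for Myl7) with a mean of at least 10 CPM in every section. A mean rho of at least 0.3 was reached for Tnni1 only, by 24 genes. The first 5 were Pln, the phospholamban gene (0.53), Atp2a2, the calcium pump of the sarcoplasmic reticulum (0.51), Myl2 (0.51), Tnnt2 (0.50) and Tnni3 (0.45). No gene reached it for Myh7, Tnnt1, Myl4 or Myl7. For the low genes a rho is also bounded by their few counts per spot.

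The other components of the contractile apparatus gave a background for these values. Of 28 sarcomere genes outside the isoform pairs, 26 could be tested and 0 passed between the days, against 0.633% of all genes. At an unadjusted p under 0.05 there were 4 of the 26, and 3279 of the 12948 genes tested. The 26 had a median log2 change of 0.06 against -0.18 for all genes. The most abundant, Actc1, Tpm1 and Tnnc1, had log2 changes of 0.12, 0.52 and 0.16 (adjusted p 0.713, 0.138 and 0.561). In CM1-dominant spots 1 of 25 passed, Tcap, which encodes telethonin of the Z-disc (0.65 ± 0.15, adjusted p = 0.0284). Of all 12757 genes 3.39% were called there and 0.807% were called higher, so 1 of 25 is not read as a result about the list. Between MI and sham 0 of 26 passed (1 at an unadjusted p under 0.05), against 1 of 12948 genes (1060 at an unadjusted p under 0.05). Actc1, Tpm1 and Tnnc1 were at -0.20, -0.11 and -0.35. At the edge 5 of 26 were lower (11 at an unadjusted p under 0.05, as were 3200 of all genes), against 3.72% of 13333 genes called lower and a median gene at -0.12. They were Myl1 (-1.77), Myl9 (-0.31), Actc1 (-0.20), Tnnc1 (-0.18) and Actn2 (-0.18), with adjusted p-values of 0.00019 to 0.0336. Under median-of-ratios scaling, which turns most edge calls from lower to higher, only Myl1 passed (-1.66, adjusted p = 0.000397), and the other 4 were at -0.19 to -0.051.

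Of 28 genes listed as candidate regulators of the isoform switch, general heart transcription factors among them, 27 could be tested. Between the days 1 passed, against the 0.633% of all genes given above. At an unadjusted p under 0.05 there were 10 of the 27, and 3279 of the 12948 genes tested. In CM1-dominant spots these numbers were 8 of 26 and 2680 of 12757. Rxrg, which encodes a retinoid X receptor, the class of partner with which thyroid hormone receptors bind DNA, was at 7.28 and 2.90 CPM in sham d3 and MI d3 and at 24.7, 17.7 and 17.6 CPM in sham d7 and MI d7 sections 1 and 2. Its log2 change was 1.99 ± 0.17 (adjusted p = 0.0166), and 2.02 ± 0.18 in CM1-dominant spots (2.93e-05). The list as a whole had a median of -0.22, close to the -0.18 of all genes. The thyroid hormone receptor genes Thra and Thrb had log2 changes of -0.36 ± 0.11 and 0.97 ± 0.21 (adjusted p 0.136 and 0.0904), Thrb at levels of 0.439 to 3.53 CPM. They were chosen after their values were seen. Between MI and sham 0 of 27 passed (3 at an unadjusted p under 0.05), against 1 of 12948 genes (1060 at an unadjusted p under 0.05). Hopx, Tbx20 and Mef2a were at -0.28, -0.06 and -0.07. At the edge 2 of 27 were higher, against 0.803% of all genes called higher, and 12 of 27 had an unadjusted p under 0.05, against 3200 of 13333 genes, with a list median of -0.15 beside -0.12 for all genes. These 2 were Hand2 (0.33) and Tbx20 (0.21), transcription factors of heart development (adjusted p 0.0239 and 0.0200).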

How the data were processed

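The authors aligned the reads to GRCm38/mm10 with Space Ranger, per the labels, and processed spots in Seurat with sctransform. Per the values, the sham d3 file deposited by the authors has uncorrected UMI counts (32285 genes), whereas those deposited for the remaining 4 sections have counts after sctransform correction, treated as a score (14466 to 15300 genes). The deposited metadata gave raw UMI counts, spot positions in pixels and 11 cell type scores, each a fraction that the authors made by label transfer from earlier nuclei. No count test was used, because 4 of 5 tables were not counts.

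Each spot was scaled to CPM over the 13711 shared genes, and spots were averaged per section. After the spot positions were seen, 21 of 3364 deposited spots lying apart from the tissue were left out (10 in MI d3, 5 and 6 in MI d7 sections 1 and 2), so that 3343 remained. Barcodes of 893 grid positions recur between sections and are not shared cells. limma 3.58.1 (R 4.3.3) was fitted with a mean-variance trend to log2(mean CPM + 1), so folds of low genes are understated. Two-sided p-values were adjusted over all genes (Benjamini-Hochberg), with a threshold of 0.05. Ratios used exact permutation tests over sections. Edge spots had fewer than 6 neighbours within 1.3 times the median spacing. The fits were tested on simulated data.

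The 10 genes and the gene lists were chosen with earlier results of these data known. Named were all 10, the genes of each list past the threshold (up to 5 each way) or else its 3 most abundant, the 5 most alike genes at a mean rho of at least 0.3, and markers. Alternatives were other scaling, totals without mitochondrial and haemoglobin genes, a pseudocount of 5 CPM, no filter, the sham d3 table corrected with SCTransform (sctransform 0.4.2, Seurat 5.3.0), values summed over spots, other cuts for edge and class, and each section left out. Added after seeing the data were the fits on CM1-dominant spots between days, spots under 1000 UMIs left out, every deposited spot kept, and the test of the difference between days in the effect of MI. Promoter sequence is from RefSeq and loci are from GENCODE. Protein sequences were not used here.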

Additional observations from a re-analysis of the deposited data

Results flagged for a closer look

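The effect of MI on 2 of the isoform ratios pointed opposite ways at the 2 days. This difference was not tested for the ratios, and for the single genes the test of the change in the effect of MI between days called 0 of the 10. For Tnnt1:Tnnt2 the log2 difference, MI minus sham, was -0.21 at day 3 and 0.11 and 0.13 in MI d7 sections 1 and 2 at day 7. All of these are small, and Tnnt1 was at 41.3 to 50 CPM in the sections. For Myl4:Myl3 the log2 difference was 0.17 at day 3 and -0.76 and -0.33 in MI d7 sections 1 and 2 at day 7. In CM1-dominant spots of day 3, Myl4 per 100 Myl3 was 0.550 in the MI section and 0.810 in the sham section, and in the MI section it reached 3.42 in fibroblast-dominant and 3.39 in endocardial-dominant spots.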

How the results depend on the processing

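Between days, Myh7 and Myl7 were lower under each of the 8 other settings and in each of the 5 fits that left out a section. Myl4 was too, except that it did not pass without MI d7 section 2 (-1.83). Leave-one-out fits of 11 to 763 called genes make counts over all genes unstable. Genes called between days numbered 82, and 186 under median-of-ratios scaling, 218 without mitochondrial and haemoglobin genes, and 11 to 570 without a section. In CM1-dominant spots they numbered 432, and 166 to 763 without a section. Between MI and sham, 1 gene was called, 3 under median-of-ratios scaling, 0 with a pseudocount of 5 CPM and 0 to 281 without a section. In CM1-dominant spots this count was 26, 46 at a CM1 score of at least 0.5, 14 under median-of-ratios scaling and 64 to 242 without a section. At day 7 it was 9, 0 under median-of-ratios scaling and without mitochondrial and haemoglobin genes, 14 with no filter or with spots under 1000 UMIs left out, 53 with summed values and 30 with every deposited spot kept. The interaction count was 13, 0 under the first 2 of these settings, 79 with a pseudocount of 5 CPM, 27 with no filter, 21 with the sham d3 table corrected with SCTransform, 111 with summed values and 55 with every deposited spot kept. At the edge it was 603, 230 under median-of-ratios scaling and 149 to 753 without a section.

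Of the 10 genes, the number called between MI and sham ran from 0 to 2 when each section was left out, over all spots and in CM1-dominant spots. The number called at the edge ran from 0 to 1, and it was 0 under median-of-ratios scaling, where Myl4 was at -0.43. Under that scaling the edge differences of Myh6 (0.066), Myh7 (0.020), Tnni3 (0.012), Tnnt2 (0.079), Myl2 (0.050) and Myl3 (0.069) became positive. So did the day changes of Tnnt1 (0.10) and Tnnt2 (0.15), and in CM1-dominant spots of Tnnt1 (0.028) and Tnnt2 (0.093), the MI difference of Tnnt1 in CM1-dominant spots (0.0096) and that of Myl3 at day 7 (0.0037). Without mitochondrial and haemoglobin genes, the day change of Tnnt2 (0.017) and the day 7 MI differences of Tnni1 (0.047) and Myl3 (0.065) turned positive.

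Leaving out a section turned the sign of further differences. Between MI and sham, Tnni3, Tnnt1 and Myl2 ran from -0.38 to 0.11, -0.23 to 0.030 and -0.38 to 0.061. In CM1-dominant spots they ran from -0.23 to 0.099, -0.11 to 0.063 and -0.30 to 0.045, and Tnnt2 from -0.11 to 0.021. Between days Tnnt1 ran from -0.24 to 0.023 and Myl2 from -0.18 to 0.27, or -0.18 to 0.16 in CM1-dominant spots, and at the edge Tnni1 ran from -0.0089 to 0.091.

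The ratio differences between MI and sham depended on which sections were averaged. Without a section they ran from -0.77 to 1.44 for Myh7:Myh6, -1.14 to 0.33 for Tnni1:Tnni3, -0.14 to 0.092 for Tnnt1:Tnnt2, -1.42 to 0.25 for Myl4:Myl3 and -1.76 to 2.61 for Myl7:Myl2. In CM1-dominant spots Tnnt1:Tnnt2 was at 0.026 and Myl7:Myl2 at -0.42, and as a median over spots Myl4:Myl3 was at 0.32, where Myl4 is above 0 in under 50% of spots of sham d7 and MI d7 section 2 and the pseudocount sets their medians. Between days Tnnt1:Tnnt2 was at 0.15 as a median over spots and ran from -0.15 to 0.052 without a section, and the other 4 ratios stayed negative in each setting. The cause of these changes was not tested. No paired analysis was possible because the groups compared share fewer than 2 replicate numbers, which neither the section block of the edge fit nor the day covariate uses. Myl7 was the most sparsely detected, with a value above 0 in 2.08% to 7.27% of spots at day 7, and the part of depth in this was not tested.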
